A study of Mus musculus with 6 samples.

Results

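The 34 genes described here encode proteins that sense DNA damage, signal it or repair it: 10 genes of homologous recombination, 8 of the Fanconi anaemia group with Blm added, 4 damage kinases, 6 that sense breaks or mark the chromatin around them, 4 of non-homologous end joining, and Msh6 and Exo1 of mismatch repair and resection. They were taken by gene symbol from a table of 32061 genes, by a rule that uses no measured value although earlier results of these data were known, and all 34 had enough counts to be tested. Poly-A RNA came from 6 samples of cultured mouse biliary epithelial cells, the lining of the bile ducts, which were taken from liver as picked ducts, passaged as organoids and then kept flat on collagen. In 3 samples, called depleted here, cells had received 4OHT (4-hydroxytamoxifen, a drug that switches on tamoxifen-dependent Cre recombinase) and were labelled as depleted of primary cilia, the single sensory projection of the cell surface. In the other 3, called competent, cells had not received 4OHT and were labelled as competent for primary cilia. The labels give no strain, age, sex, allele, Cre driver or time after 4OHT, and no sample has the drug without the loss of cilia, so an effect of the drug and an effect of cilium loss cannot be told apart. They also do not say whether replicates came from separate animals or cultures, and the p-values then reflect no more than the spread among these 6 libraries, part of which may be technical.

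A double-strand break is sensed by the complex of Mre11a, Rad50 and Nbn, which activates the kinase Atm, while single-stranded DNA at stalled forks activates Atr. Both kinases work through Chek1 and Chek2 and mark the histone H2afx, to which Mdc1 and then Trp53bp1 are recruited. Breaks are joined either directly, by non-homologous end joining, or by homologous recombination with the sister chromatid as template, which needs Brca1, Brca2 and their partners. The Fanconi anaemia proteins remove cross-links between the DNA strands. Many of these genes are transcribed more in S phase through E2F factors, and the coding sequences of several are long.

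The depleted samples had totals of 26293486 to 36998935 counts and the competent samples 32199606 to 36093068. Member genes had between 14 and 3562 counts in a sample, above a floor of 3 counts, which equalled 0.0797 to 0.119 CPM (counts per 1000000 counts, scaled by edgeR's TMM method). No label names the gene that was deleted. Wdr35, a cilium gene taken as the candidate from what is known of the study, had 28.0 ± 1.60 CPM in depleted and 33.3 ± 1.98 CPM in competent samples (SD, n = 3 each; log2 change −0.25, edgeR adjusted p 0.00245), and counts over a whole gene do not resolve a deleted exon. Biliary markers summed to 15631 to 17046 CPM in depleted and 16610 to 17605 CPM in competent samples, although Krt19 averaged 8.33 and 12.5 CPM and Sctr 0.144 and 0.102 CPM. Of 11 hepatocyte markers, summed at 439.0 to 486.0 CPM in depleted and 288.5 to 355.6 CPM in competent samples, most of the signal was Apob and Hnf4a, with Cyp3a11 at 0 in every sample and Alb at 2.57 and 2.61 CPM. The 11 fibroblast markers summed to 3.79 to 5.07 CPM and 3.31 to 3.90 CPM, with Col1a2, Col3a1 and Lum at 0, and the 8 endothelial markers to 0.255 to 0.561 CPM and 0.0587 to 0.451 CPM. The 9 immune markers summed to 45.7 to 51.4 CPM in depleted and 50.6 to 50.9 CPM in competent samples, most of it Csf1r, while Ptprc averaged 0.185 and 0.149 CPM and Cd68 was higher, at 5.41 and 3.42 CPM (edgeR adjusted p 0.000457). What part these markers have in the results was not tested. In RNA from whole cultures, fewer cells of a type and less RNA per cell cannot be told apart.

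In depleted samples 20 of the 34 genes were higher, 4 were lower and 10 missed the threshold (edgeR quasi-likelihood test, Benjamini-Hochberg adjusted p below 0.05 over 13839 genes). Across all genes tested 69.2% were called, 34.9% higher and 34.3% lower. The share of members called, 70.6%, was therefore close to that of all genes, and the difference lay in direction: 58.8% of members were higher and 11.8% were lower. Their median log2 change was 0.37, against −0.006 for all genes. More than 1.5-fold changes were found in 11 members, all of them higher. In 26 members, or 76.5%, the 3 depleted and 3 competent values did not overlap, a pattern found in 72.5% of all genes. Taken sample by sample against the competent mean, the members' median log2 value was 0.36, 0.35 and 0.28 in depleted samples and −0.06, 0.01 and 0.05 in competent samples. The size differed by role, with medians of 0.73 for homologous recombination, 0.66 for break sensing, 0.23 for the Fanconi group, 0.14 for the kinases and −0.16 for end joining.

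**Figure D1:**
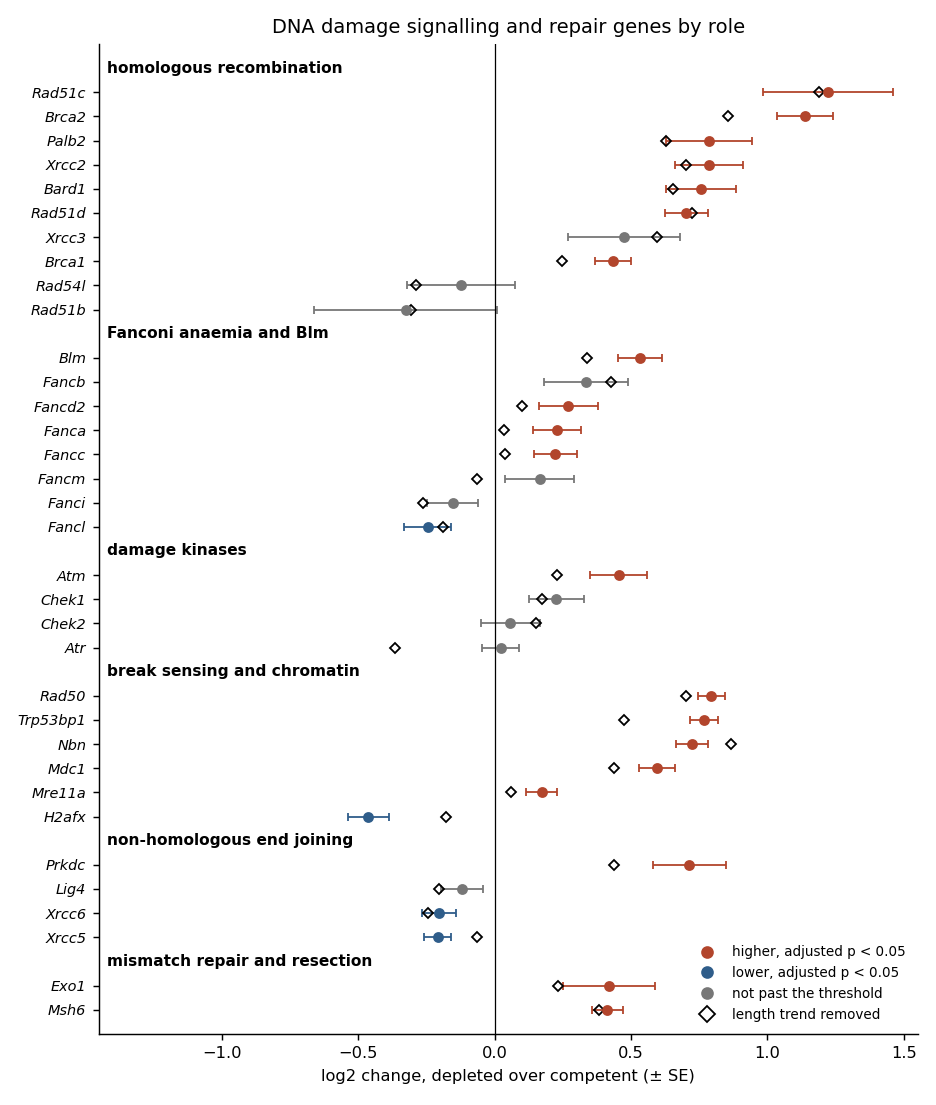
Log2 change (depleted over competent, n = 3 each) of the 34 genes by role, with bars for 1 SE; filled circles are coloured by call and open diamonds give the change after the trend with transcript length was removed. Homologous recombination and break-sensing genes lie mostly right of 0, up to 1.22 for Rad51c, while 3 of 4 end-joining genes lie left of it.

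Transcript length has to be read beside these values, since in this comparison longer transcripts were higher in depleted samples. Over all genes, the rank correlation of log2 change with merged exon length was 0.295, and over the 34 members it was 0.267; genes of a comparison share the same 6 libraries, so these are descriptions. Members ran from 1384 nt (H2afx) to 23629 nt (Atr). After the length trend was removed in each library, 17 members were higher, 5 were lower and 12 did not pass, and the rank correlation over members was −0.04. Over all genes 68.9% were then called, 33.6% higher and 35.3% lower, against 50% higher and 14.7% lower among members. The members' median log2 change was 0.23 after the correction. With the longest transcript of each gene as the length, 47.1% of members were higher and 20.6% were lower, with a median of 0.18. The correction moved single genes by −0.29 to 0.39 on the log2 scale, and 22 members had the same call with and without it. For members, the corrected value is given below wherever the correction changed a call or moved a log2 change by more than 1.5 times.

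**Figure D2:**
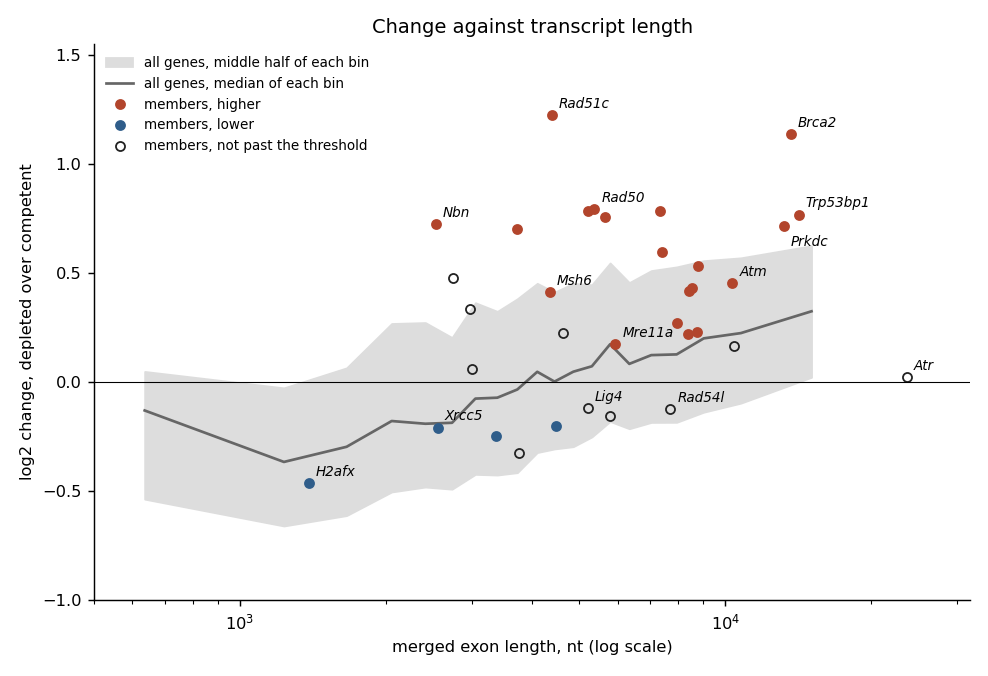
Log2 change (depleted over competent) against merged exon length in nt (log scale); the line and band give the median and the middle 50% of all genes tested, in 20 bins of length, and points are the 34 members. Members past the threshold sit mostly above the line, while H2afx and Xrcc5 lie within the band and Atr, at 0.02, lies to the right of it.

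Matches to the E2F site are shown because E2F factors are known regulators of repair genes. RefSeq promoter windows (GRCm38.p6) of 250 bases before the start were found for 26 members, in 30 windows. Both strands were searched for the letters TTTGGCGC, then TTTCCCGC, then TTTGCCGC and finally TTTCGCGC. A match lay in 5 of 30 member windows, or 16.7%, against 611 of 32851 windows in the table, or 1.86%. The genes were Brca2, Bard1 and Mdc1, which were higher, Chek2, which did not pass, and Xrcc6, which was lower; the stretch of Xrcc6 touches one of its own exons and is not printed. The 3 higher genes of 5 are close to the 58.8% of all members that were higher. Capitals mark the match in the 60-base stretches printed 5′ to 3′ on the gene's strand, at chr5:150522427-150522486 (+) for Brca2, chr1:71103148-71103207 (−) for Bard1, chr17:35841438-35841497 (+) for Mdc1 and chr5:110839805-110839864 (+) for Chek2.
Brca2: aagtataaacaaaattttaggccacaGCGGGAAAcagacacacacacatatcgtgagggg
Bard1: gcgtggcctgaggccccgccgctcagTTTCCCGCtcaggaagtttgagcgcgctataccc
Mdc1: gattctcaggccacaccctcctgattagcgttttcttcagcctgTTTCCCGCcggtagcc
Chek2: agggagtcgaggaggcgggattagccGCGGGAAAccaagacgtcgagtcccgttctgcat
The match starts 168 bases before the start of Brca2, 209 before that of Bard1, 16 before that of Mdc1 and 152 before that of Chek2. All 4 carry the same 8 letters, on the reverse strand in Brca2 and Chek2. Starts are those of RefSeq, and annotated exons of Bard1 and Chek2 reach into their own windows, outside the printed stretches. The CCAAT box was in 17 of 30 member windows (56.7%, against 33.8% of all windows), and the letters TTTGAA or TTCGAA of the cell cycle homology region in 2 of 30 (6.67%, against 17.1%). The motifs were counted separately, so a window can hold several. A match of letters describes the window and is not a binding site, and binding was not measured.

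Homologous recombination had the highest median of the roles: of 10 genes 7 were higher, 0 were lower and 3 did not pass, and with the length trend removed 8 were higher. Rad51c, which acts in strand exchange, had 1.58, 1.62 and 1.22 CPM in depleted samples, against 0.528, 0.707 and 0.637 CPM in competent samples. All 3 depleted values lay above all competent ones, and the fold was 2.33 (log2 1.22, SE 0.24, edgeR adjusted p 0.000453), on the second lowest mean level per length of the 34 genes over all samples. Brca2, a large protein that acts at resected single-stranded DNA, had 15.6, 16.7 and 15.7 CPM in depleted samples, against 6.11, 7.27 and 8.42 CPM in competent samples. Its fold was 2.20 (log2 1.14, SE 0.10, edgeR adjusted p 3.83e-07), or 1.81 after the length correction.

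The other genes that act with Brca1 and Brca2 moved less. Palb2, which bridges both proteins, averaged 3.92 CPM in depleted and 2.26 CPM in competent samples (fold 1.72). Bard1, the obligate partner of Brca1, averaged 4.87 and 2.87 CPM (fold 1.69). Brca1 itself, with a RING domain that pairs with that of Bard1, had 22.1, 20.9 and 21.4 CPM in depleted samples, against 14.9, 15.9 and 16.8 CPM in competent samples. Those groups did not overlap, yet the fold was 1.35 (log2 0.43, SE 0.07, edgeR adjusted p 5.07e-05), or 1.19 after the length correction (log2 0.25).

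Of the remaining genes of strand exchange, Rad51d and Xrcc2 were higher and the other 3 did not pass. Rad51d averaged 20.2 CPM in depleted and 12.4 CPM in competent samples (fold 1.63), and Xrcc2, which works with Rad51d, 7.32 and 4.22 CPM (fold 1.72). Xrcc3, the partner of Rad51c, had 1.54, 1.5 and 1.27 CPM in depleted samples, against 1.12, 0.934 and 1.04 CPM in competent samples. Its groups did not overlap, but the log2 change of 0.48 missed the threshold (SE 0.21, edgeR adjusted p 0.0549) and passed it with the length trend removed (log2 0.60, edgeR adjusted p 0.0203). Rad51b had the lowest mean level per length over all samples and its values overlapped between groups, at 0.792, 0.561 and 0.396 CPM in depleted and 0.910, 0.481 and 0.744 CPM in competent samples (log2 −0.33, SE 0.33). Rad54l, a motor protein that moves along DNA, also overlapped, at 2.18, 3.15 and 1.98 CPM in depleted and 2.64, 3.11 and 2.23 CPM in competent samples (log2 −0.12, SE 0.20, or −0.29 after the length correction, past the threshold in neither).

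**Figure D3:**
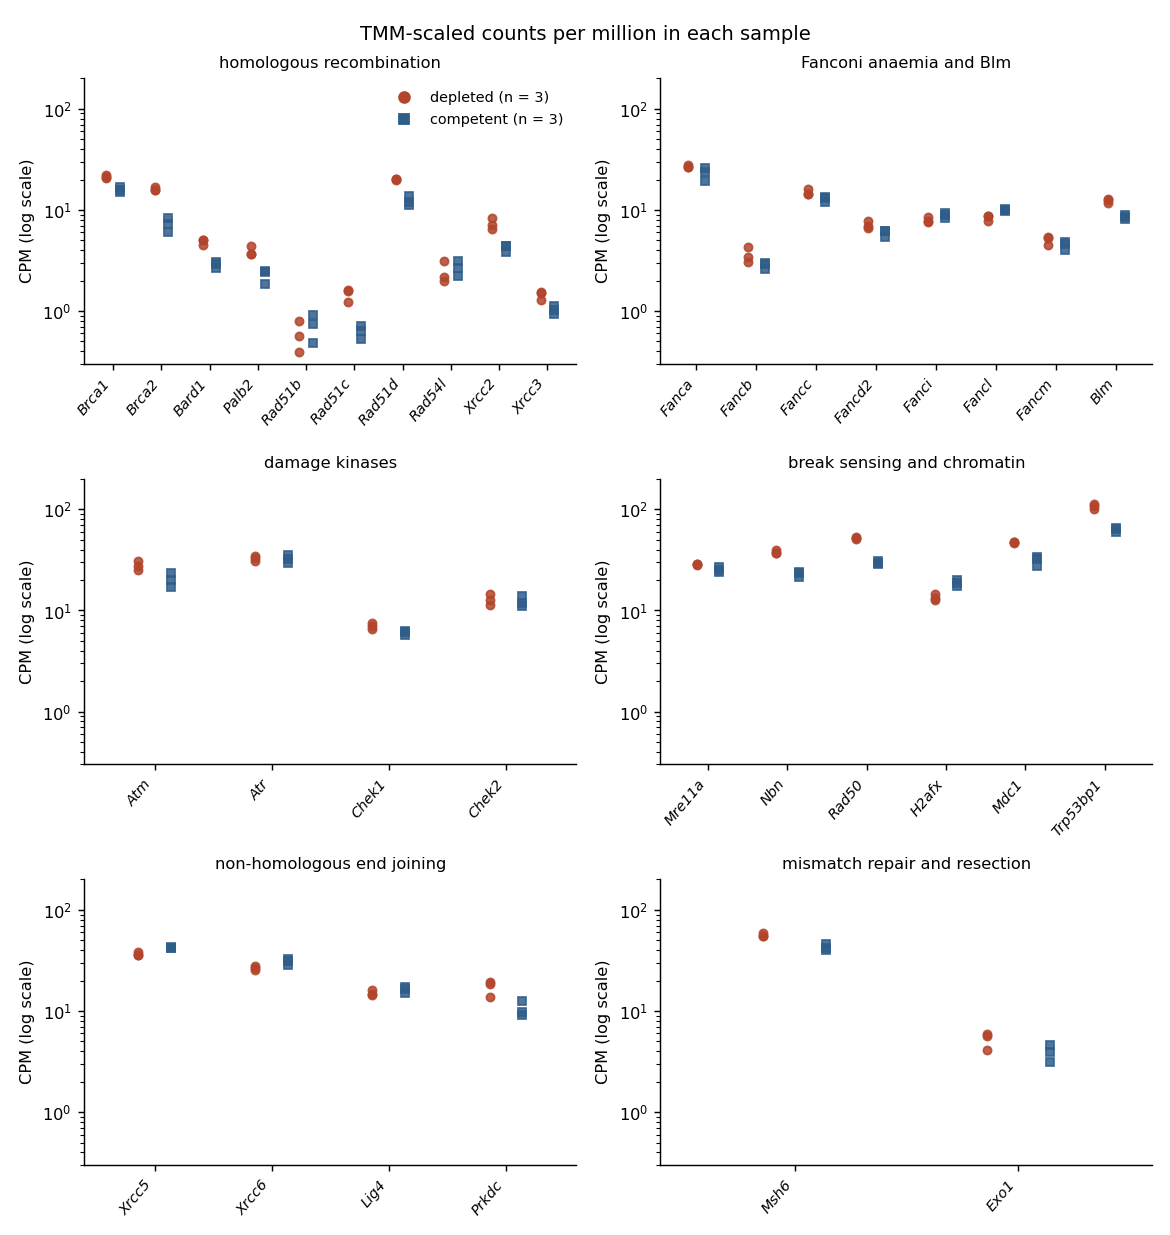
TMM-scaled CPM (log scale) of each gene in each sample, by role, with depleted samples as circles to the left of competent samples as squares. Brca2, Rad51c, Rad50, Nbn and Trp53bp1 show groups that are wide apart, while Atr, Chek2 and Rad51b show groups that overlap.

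In the Fanconi anaemia group, 4 of 8 genes were higher, 1 was lower and 3 did not pass, and its median log2 change of 0.23 was 0.04 once the length trend was removed. Blm, a helicase that dissolves recombination intermediates, was the exception in size. It had 12.6, 11.8 and 12.8 CPM in depleted samples, against 8.60, 8.86 and 8.23 CPM in competent samples, with no overlap (fold 1.45, log2 0.53, SE 0.08, edgeR adjusted p 5.24e-05). With the trend removed its log2 change was 0.34 and it remained past the threshold.

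The core complex, which ubiquitinates Fancd2 and Fanci, held small changes that depend on length. Fanca had 28.0, 26.5 and 26.8 CPM in depleted and 23.8, 26.1 and 19.5 CPM in competent samples (log2 0.23, edgeR adjusted p 0.0329), and 0.03 with the trend removed, which did not pass. Fancc had 14.5, 16.1 and 14.3 CPM in depleted and 13.2, 13.4 and 11.9 CPM in competent samples (log2 0.22, edgeR adjusted p 0.0222), and 0.04 with the trend removed. Both were thus higher by less than 1.2-fold, and neither call held after the correction with merged exon length. Fancc passed when the longest transcript gave the length (log2 0.20, edgeR adjusted p 0.0353), and Fanca did not. The call of Fanca was also lost without any 1 depleted sample and without competent replicate 3 (edgeR adjusted p 0.179), and that of Fancc without depleted replicate 2 or competent replicate 3 (edgeR adjusted p 0.117 and 0.115). Fancl, the ubiquitin ligase subunit, was the member that fell, with 7.80, 8.63 and 8.75 CPM in depleted and 9.75, 9.90 and 10.3 CPM in competent samples (log2 −0.25, edgeR adjusted p 0.0219). Its corrected log2 change of −0.19 did not pass (edgeR adjusted p 0.0682), nor did its change without depleted replicate 1 or competent replicate 3 (edgeR adjusted p 0.0774 and 0.0619). Fancl passed as lower when the longest transcript gave the length (log2 −0.22, edgeR adjusted p 0.0373). Fancb, which joins Fancl in the catalytic part, had 4.28, 3.09 and 3.45 CPM in depleted and 2.61, 2.91 and 2.97 CPM in competent samples, a log2 change of 0.33 that missed the threshold (edgeR adjusted p 0.0683) and of 0.43 that passed with the trend removed (edgeR adjusted p 0.0221). By the longest transcript Fancb did not pass (log2 0.33, edgeR adjusted p 0.0708).

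Fancd2 and Fanci, which form a clamp on DNA, lay on opposite sides of 0. Fancd2 had 6.66, 6.95 and 7.84 CPM in depleted and 5.46, 6.22 and 6.16 CPM in competent samples (log2 0.27, edgeR adjusted p 0.0391), or 0.10 after the length correction, which did not pass. Its call was also lost without depleted replicate 2 or 3, or competent replicate 1 or 3, with edgeR adjusted p between 0.0584 and 0.164. Fanci had 7.53, 8.57 and 7.76 CPM in depleted and 8.34, 9.39 and 8.84 CPM in competent samples, with overlapping values (log2 −0.15, edgeR adjusted p 0.163). After the correction Fanci passed as lower (log2 −0.26, edgeR adjusted p 0.0221). Fancm, a translocase that brings the complex to DNA, had 5.39, 4.46 and 5.32 CPM in depleted and 4.64, 4.02 and 4.83 CPM in competent samples, and its log2 change was 0.17 without and −0.06 with the correction, past the threshold in neither. Exons on the opposite strand overlapped 18.64% of the exon length of Fancc, and between 10% and 16% of that of Fanca, Fanci, Fancl, Rad54l, H2afx and Trp53bp1. The strand setting of the counting is not given, so reads from the overlapping genes may be included.

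Among the damage kinases, Atm was higher and Atr, Chek1 and Chek2 did not pass. Atm, the kinase that answers to double-strand breaks, had 25.2, 30.6 and 27.2 CPM in depleted samples, against 16.9, 19.9 and 23.7 CPM in competent samples. All depleted values were above all competent values, by 1.37-fold (log2 0.45, SE 0.10, edgeR adjusted p 0.00153). Its log2 change was 0.23 with the trend removed (edgeR adjusted p 0.0373) and 0.15, not past the threshold, when the longest transcript gave the length. Atr, the kinase of stalled forks, had 34.4, 33.3 and 31.1 CPM in depleted samples, against 29.2, 32.6 and 35.1 CPM in competent samples. These values overlapped and the log2 change was 0.02 (SE 0.07, edgeR adjusted p 0.784). Atr has a merged exon length of 23629 nt but a longest transcript of 8102 nt, and it passed as lower with either length corrected, at −0.36 (edgeR adjusted p 2.41e-05) and −0.24 (edgeR adjusted p 0.00101). Chek1, the checkpoint kinase downstream of Atr, averaged 7.04 CPM in depleted and 6.03 CPM in competent samples (log2 0.23, edgeR adjusted p 0.0614), with groups that did not overlap. Chek2, the kinase downstream of Atm, averaged 12.9 and 12.3 CPM (log2 0.06, edgeR adjusted p 0.648, or 0.15 after the length correction, which did not pass either), with groups that did overlap.

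Of the 6 genes that sense breaks or mark the chromatin around them, 5 were higher and 1 was lower. Rad50, the coiled-coil subunit that tethers DNA ends, had 52.9, 50.6 and 51.6 CPM in depleted samples, against 29.7, 28.8 and 30.9 CPM in competent samples. The groups lay far apart for their spread, with a fold of 1.73 (log2 0.79, SE 0.05, edgeR adjusted p 9.86e-09), or 1.63 after the length correction. Nbn, the subunit that recruits Atm, had 36.9, 39.7 and 37.4 CPM in depleted samples, against 21.5, 23.9 and 23.7 CPM in competent samples. Its fold of 1.65 became 1.83 with the trend removed, since its transcript is short. Mre11a, the nuclease of the same complex, had 28.0, 28.6 and 29.1 CPM in depleted samples, against 25.2, 24.1 and 26.8 CPM in competent samples (fold 1.13, log2 0.17, edgeR adjusted p 0.0155). With the trend removed Mre11a had a log2 change of 0.06 that did not pass, and without competent replicate 2 one of 0.13 (edgeR adjusted p 0.0811).

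Trp53bp1, which steers breaks towards end joining, had 113, 108 and 101 CPM in depleted samples, against 60.4, 63.4 and 65.5 CPM in competent samples. Its groups were well apart (fold 1.70, log2 0.77, SE 0.05, edgeR adjusted p 2.19e-08), and its log2 change was 0.47 with the length trend removed, still past the threshold. Mdc1, the scaffold that binds phosphorylated H2afx, averaged 47.4 CPM in depleted and 31.4 CPM in competent samples (fold 1.51). H2afx, the histone variant itself, went the other way, with 12.6, 13.3 and 14.6 CPM in depleted samples, against 19.8, 18.5 and 17.7 CPM in competent samples. Without the length correction it was the largest fall among the members (log2 −0.46, SE 0.08, edgeR adjusted p 0.000101). H2afx has the shortest transcript of the 34, and its log2 change was −0.18 with the trend removed (edgeR adjusted p 0.0343), then the smallest of the 5 falls that passed. Since H2afx shares coding sequence with other H2A genes, its counts carry an uncertainty that the SE does not include.

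The genes of non-homologous end joining were divided: 1 of 4 was higher, 2 were lower and 1 did not pass. Prkdc, the catalytic subunit of DNA-dependent protein kinase, had 13.7, 19.1 and 18.6 CPM in depleted samples, against 9.07, 9.82 and 12.6 CPM in competent samples. The lowest depleted value stood just above the highest competent value, and the fold was 1.64 (log2 0.71, SE 0.13, edgeR adjusted p 0.000312), with a log2 change of 0.44 once the length trend was removed. Xrcc5 and Xrcc6 encode the Ku80 and Ku70 subunits that ring a broken end. Xrcc5 had 36.0, 35.5 and 38.1 CPM in depleted samples, against 42.0, 41.8 and 43.0 CPM in competent samples (log2 −0.21, edgeR adjusted p 0.00178). Xrcc6 had 25.4, 27.7 and 26.8 CPM in depleted samples, against 28.6, 32.5 and 30.9 CPM in competent samples (log2 −0.20, edgeR adjusted p 0.00941). Both Ku genes fell by a similar amount without overlap between groups. With the merged exon length corrected, Xrcc5 did not pass (log2 −0.07), and Xrcc6 did (log2 −0.24). Xrcc5 passed as lower when the longest transcript gave the length (log2 −0.16, edgeR adjusted p 0.00898). Lig4, the ligase that seals the ends, had 14.7, 16.2 and 14.4 CPM in depleted and 15.2, 16.6 and 17.3 CPM in competent samples, with a log2 change of −0.12 that did not pass and of −0.20 that did with the trend removed (edgeR adjusted p 0.0254).

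Msh6, which recognises mismatches, had 58.8, 54.9 and 55.4 CPM in depleted samples, against 39.7, 41.6 and 45.6 CPM in competent samples. Its groups did not overlap, and its fold of 1.33 (log2 0.41, SE 0.06, edgeR adjusted p 2.25e-05) changed little with the length trend removed (log2 0.38). Exo1, the exonuclease that resects DNA in mismatch repair and at breaks, had 5.70, 5.92 and 4.11 CPM in depleted samples, against 3.14, 4.61 and 3.93 CPM in competent samples. Exo1 was the 1 called gene whose groups overlapped (log2 0.42, SE 0.17, edgeR adjusted p 0.0412), and it did not pass with the length trend removed (log2 0.23), in DESeq2, in limma-voom, or without depleted replicate 1 or 2 or competent replicate 1 or 3 (edgeR adjusted p 0.0821 to 0.170).

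Per kilobase of merged exon length, the length used for levels per length here and above, the levels of the 34 genes spread widely. The order was not taken with the longest transcript. Xrcc5 led over all 6 samples, with 14.3 ± 0.534 counts per kilobase per 1000000 counts in depleted and 16.5 ± 0.243 in competent samples (SD, n = 3 each). In depleted samples Nbn stood slightly above it, at 15.0 ± 0.580, against 9.09 ± 0.530 in competent samples. H2afx, Msh6 and Rad50 came next in the order. At the low end stood Rad51c, with 0.336 ± 0.0509 in depleted and 0.142 ± 0.0206 in competent samples, and Rad51b, with 0.155 ± 0.0529 and 0.189 ± 0.0576.

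Since many of these proteins act in fixed complexes, the level of a gene was also set against that of its partner within each sample, per kilobase. The 12 pairs were chosen with the values known, and 3 against 3 samples cannot give an exact p below 0.10, so the ratios are a description with no test. In 7 of the 12 pairs the groups did not overlap. The same held for 72.5% of all single genes tested, and no share over other pairs of genes was taken. The ratio of Rad50 to Mre11a was 2.08, 1.95 and 1.95 in depleted samples, against 1.3, 1.32 and 1.27 in competent samples. That of Nbn to Mre11a was 3.08, 3.24 and 3.01, against 1.99, 2.32 and 2.07. The ratio of Rad50 to Nbn, by contrast, overlapped between groups, at 0.675, 0.601 and 0.649 in depleted and 0.652, 0.567 and 0.614 in competent samples (log2 difference 0.07). Once the length trend was removed, the log2 difference of Rad50 per Nbn was −0.17. Both ratios to Mre11a were above every competent value in all 3 depleted samples.

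Among the end-joining genes, Xrcc6 per Xrcc5 was 0.403, 0.445 and 0.402 in depleted samples and 0.389, 0.444 and 0.411 in competent samples (log2 difference 0.007). With the length trend removed, the log2 difference of Xrcc6 per Xrcc5 was −0.18. Prkdc per Xrcc5 was 0.0740, 0.104 and 0.0946, against 0.0419, 0.0455 and 0.0570, a log2 difference of 0.92 that was 0.50 with the length trend removed. The other pairs without overlap were Mdc1 per H2afx, higher by 1.07 on the log2 scale (0.61 with the trend removed), Bard1 per Brca1, higher by 0.32, Atr per Atm, with a log2 difference of −0.43, and Fanci per Fancd2, with −0.42. Palb2 per Brca2, Chek2 per Chek1 and Lig4 per Xrcc5 overlapped between groups. Their log2 differences were −0.35, −0.15 and 0.09, and −0.23, −0.02 and −0.14 with the length trend removed.

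**Figure D4:**
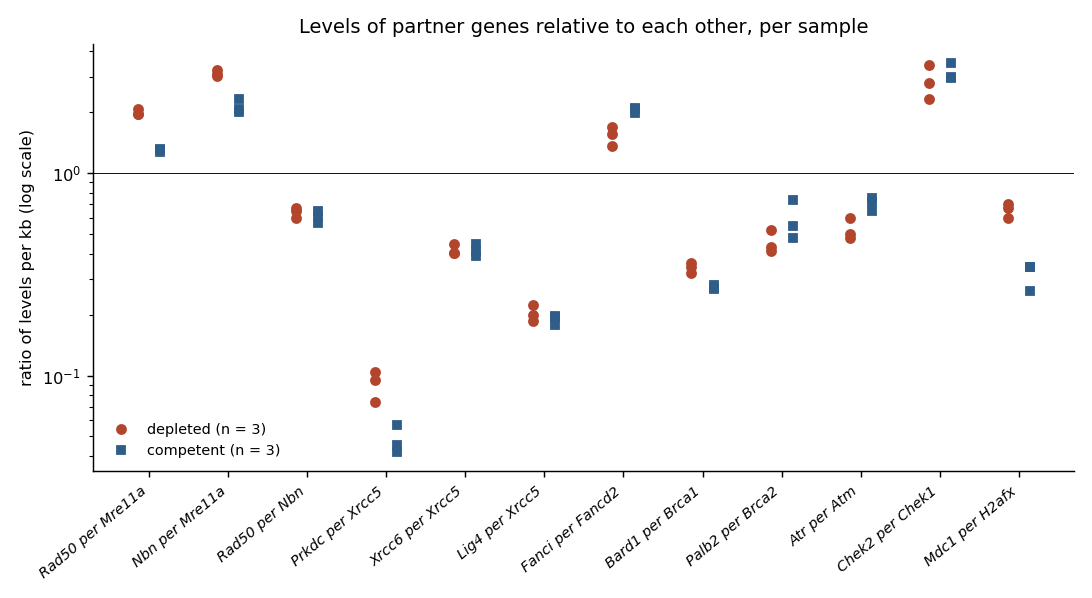
Ratio of the levels per kilobase of 12 pairs of partner genes in each sample (log scale), with depleted samples as circles to the left of competent samples as squares. The ratios of Rad50 and Nbn to Mre11a are higher in all 3 depleted samples, whereas Rad50 per Nbn and Xrcc6 per Xrcc5 overlap.

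Of the 34 genes, 13 start within 1000 bases of a protein-coding gene that runs the other way, so that a short stretch of DNA lies between the starts or the starts overlap. Of the 12 neighbours tested, 3 were higher, 6 were lower and 3 did not pass. Across all genes tested 69.2% were called, 34.9% higher and 34.3% lower, so calls of either direction were common. Brca1 (log2 0.43) and Nbr1 (0.45), an autophagy receptor, were both higher, and so were Atm (0.45) and Npat (0.31), an activator of histone genes. In 3 pairs the members were higher and the neighbours lower. Palb2 had a log2 change of 0.79 and Dctn5, a dynactin subunit whose start lies 56 bases away, one of −0.72 (SE 0.06, edgeR adjusted p 1.64e-07). Fancd2 had 0.27 and Emc3, a membrane protein insertase subunit that starts 30 bases away, −0.50 (edgeR adjusted p 2.10e-07). Mre11a had 0.17 and Ankrd49 −0.61 (edgeR adjusted p 0.000142), but these starts overlap by 202 bases, and reads in the overlap cannot be assigned without strand. With the length trend removed all 3 neighbours were still lower, while Fancd2 and Mre11a did not pass.

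In each of the remaining pairs at most 1 of both genes passed without the length correction. Prkdc was higher and Mcm4, a subunit of the replicative helicase, had a log2 change of −0.04 that did not pass. Pomgnt1 beside Rad54l (−0.36), Zfyve21 beside Xrcc3 (−0.27) and Abhd13 beside Lig4 (−0.12) were lower, next to members that did not pass, and Zfyve26 beside Rad51b was higher (0.40). Mospd2 beside Fancb and Hscb beside Chek2 did not pass, like their members. With the length trend removed the calls of Zfyve21 and Zfyve26 were lost, and Mospd2 passed as lower and Hscb as higher. Npat was then at 0.19 and Abhd13 at −0.20, both still past the threshold. With this correction Lig4 passed as lower like Abhd13, at −0.20. Fancb passed as higher (0.43) beside Mospd2 (−0.25), and Xrcc3 as higher beside Zfyve21.

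**Figure D5:**
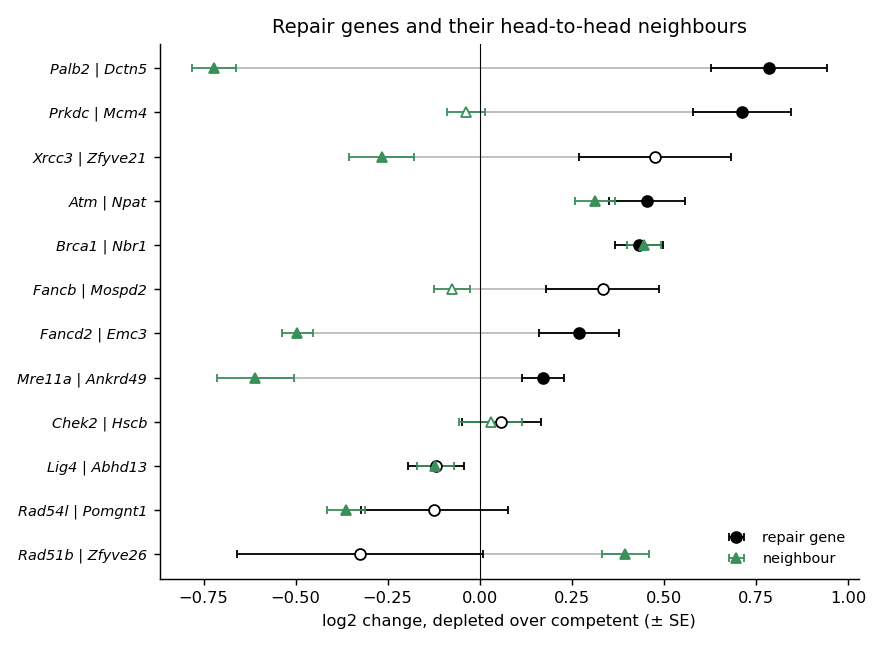
Log2 change (depleted over competent, bars for 1 SE) of 12 repair genes, as circles, and of the gene that starts beside each on the opposite strand, as triangles; open symbols did not pass an adjusted p of 0.05. Palb2, Fancd2 and Mre11a lie right of 0 with their neighbours left of it, whereas Brca1 and Nbr1 nearly coincide.

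Other genes of the same pathways were read from lists of 137 genes, of which 134 were tested: 70 were higher, 32 were lower and 32 missed the threshold (median log2 change 0.22). With the length trend removed these were 61, 29 and 44, with a median of 0.13. Over all genes tested 34.9% were higher and 34.3% were lower without the correction, and 33.6% and 35.3% with it. Of 24 further recombination genes 17 were higher, 4 were lower and 3 did not pass (median 0.44). Rad54b, a relative of Rad54l, averaged 6.03 ± 0.363 CPM in depleted and 1.93 ± 0.197 CPM in competent samples (fold 3.13), and Rad52, an annealing protein, 29.8 ± 0.375 and 10.3 ± 0.980 CPM (fold 2.88). Of 13 further Fanconi genes 4 were higher and 5 were lower (median −0.03), with Ercc4 and Fan1, both nucleases, higher by 1.98-fold and 1.85-fold.

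Checkpoint signalling held 9 higher and 3 lower genes of 15, with Ppm1d, the phosphatase that ends the response, higher by 2.60-fold and Atrip, the partner of Atr, by 1.77-fold. Among 13 further genes of break sensing 7 were higher and 1 was lower, including Uimc1 (fold 1.70) and the ubiquitin ligase Rnf168 (fold 1.68), which acts between Mdc1 and Trp53bp1. In end joining 5 of 8 were higher and 2 were lower (median 0.41), with Paxx, a Ku-binding factor, higher by 2.02-fold and Dclre1c, the nuclease Artemis, by 1.88-fold. Mismatch repair had 5 higher and 1 lower of 9, Pms1 (fold 2.26) among them; with the length trend removed 2 were higher, 0 were lower and 7 did not pass, and the median of 0.23 became 0.05.

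Of 19 base excision genes 5 were higher, 4 were lower and 10 did not pass (median 0.05), with the glycosylases Mbd4 (fold 2.73) and Neil3 (fold 1.56) higher. Nucleotide excision held changes both ways, with 11 higher and 10 lower of 22 (median 0.06). Its largest changes were falls: Rpa3, a subunit of the single-strand binding protein RPA, averaged 3.61 ± 0.153 CPM in depleted and 10.8 ± 1.21 CPM in competent samples, and Cetn2, a centrin that also sits at centrioles, 20.7 ± 0.692 and 44.2 ± 0.704 CPM. Translesion synthesis and reversal had 7 higher and 2 lower of 11 (median 0.32), led by Rev1 (fold 2.38) and Poli (fold 1.90). With the length trend removed the median was 0.18 for the further Fanconi genes, 0.36 for checkpoint signalling, −0.01 for base excision, −0.03 for nucleotide excision and 0.21 for translesion synthesis.

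The genes were also set beside a pair of lists that often move with damage responses. Of 20 damage-induced targets of p53, 15 were higher, 3 were lower and 2 did not pass (median 0.46). Over all genes tested 34.9% were higher and 34.3% were lower. The summed level of the p53 targets was 3784 to 3845 CPM in depleted and 2469 to 2480 CPM in competent samples. Polk, Ddb2, Xpc and Ppm1d, all higher, are also counted in the repair lists above. Pcna, which was lower, is counted both there and among the proliferation markers. Bbc3, which encodes the cell-death protein PUMA, averaged 216 CPM in depleted and 37.7 CPM in competent samples, and Mdm2, the ubiquitin ligase of p53, 724 and 142 CPM. Of 20 proliferation markers, 4 were higher, 11 were lower and 5 did not pass (median −0.15), and their summed level overlapped, at 909.0 to 913.4 CPM in depleted and 866.1 to 953.7 CPM in competent samples. Ccne1, the cyclin of S phase entry, averaged 2.81 and 6.32 CPM and Rrm2, a ribonucleotide reductase subunit, 12.2 and 22.2 CPM. Whether either list has a part in the levels of the 34 genes was not tested.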

How the data were processed

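The authors deposited raw, whole-number counts of reads per gene for 6 samples, without normalization. Libraries were poly-A selected and directional, per the labels' protocols. The tools were cutadapt 1.16, STAR 2.7.1a, featureCounts and DESeq2 1.34.0 on GRCm38, per the submitters' processing notes; the strand setting and annotation are not given in the sources used here. Columns named WT were read as competent and KO as depleted.

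Counts were tested in edgeR 4.0.16 (filterByExpr, TMM, glmQLFit and glmQLFTest, two-sided) with group as the only term, and Benjamini-Hochberg adjustment over 13839 genes at 0.05. Code was tested on simulated data. Replicate libraries of a group differed beyond sampling noise (chi-square divided by its degrees of freedom, 5.53 to 9.84) and were each counted once. Lengths came from GENCODE M21 (GRCm38); the length trend was removed by a loess curve (span 0.5) per library, used as an offset. The same samples were refitted with DESeq2 1.42.0, limma 3.58.1, other scalings, filters and left-out samples. The 34 genes and every list, ratio and neighbour were chosen with earlier results of these data known. Values are given per sample for the largest changes of each role in each direction and for calls that depend on length, and from other lists for up to 2 of the largest changes past the threshold; some listed genes are not reported here.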

Additional observations from a re-analysis of the deposited data

How the results depend on the processing

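Of the 34 genes, 19 had the same call in every setting tried. The counts of 20 higher and 4 lower members became 15 and 4 with upper-quartile scaling, 16 and 3 with DESeq2, and 15 and 3 at an adjusted p below 0.01; leaving out each sample in turn gave 16 to 19 higher and 3 to 4 lower, with medians of 0.28 to 0.39. Over all genes the left-out samples gave 4537 to 4697 higher and 4389 to 4671 lower. With the longest transcript as length, 7 members were lower, more than 1.5 times the count without correction.

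Signs turned in genes that were near 0. Atr was at −0.027 with upper-quartile scaling, −0.36, −0.24 and −0.36 with the length trend removed (merged exons, longest transcript, and merged exons with the replicate block), and between −0.046 and 0.080 with a sample left out, below 0 without depleted replicate 1 or competent replicate 1. Fancm was at −0.063, −0.092 and −0.061 in the same 3 length settings, and Mre11a at −0.018 with the longest transcript. Chek2 ran from −0.028 to 0.16 with a sample left out, below 0 without depleted replicate 1 or competent replicate 2, and Rad54l from −0.36 to 0.022, above 0 without depleted replicate 3. The cause was not tested.

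Calls lost in some of these settings were those of Exo1, Fanca, Fancc, Fancd2, Fancl, Mre11a, Xrcc5 and Atm. With DESeq2 those of Exo1, Fancc, Fancd2, Fancl and Mre11a were lost. Upper-quartile scaling lost those of Exo1, Fanca, Fancc, Fancd2 and Mre11a. Xrcc3, Fancb and Chek1 passed when depleted replicate 3, 2 or 1 was left out (edgeR adjusted p 0.0485, 0.0361 and 0.0499). Same-numbered samples correlated at −0.03, 0.01 and −0.02 in their deviations from the group means. No shared deviation was seen, which cannot show whether the samples were paired. With the replicate block 20 members were higher and 4 were lower, and 4828 and 4698 of all genes. Low levels limit Rad51b, Rad51c, Xrcc3 and Rad54l, with SEs of up to 0.33.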
